A study of Mus musculus with 6 samples.

Results

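The genes described here are Lcn2 and 8 others that are known as acute-phase or inflammation-induced genes of epithelium: Saa3, C3, Cfb, Cp, Slpi, Nfkbiz, S100a8 and S100a9. Members were the probe sets annotated to exactly 1 gene symbol, that symbol being one of these 9, and every such probe set was kept. This gave 17 of the 45037 probe sets in the table, for 8 of the 9 genes and of 18193 genes in all: 8 for Cp, 3 for Nfkbiz and 1 each for Lcn2, Saa3, Cfb, Slpi, S100a8 and S100a9. No probe set carried the symbol C3 in the annotation used, so C3 was not analysed here. The 9 genes were chosen by their log2 signals on these same arrays, between the groups and within them. Their differences and ranges are therefore given as descriptions. Counts of members that passed a test stand beside the share of all probe sets that did, and support nothing.

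RNA was measured on Affymetrix mouse arrays. The cells were 4T1, an established mammary carcinoma line of the mouse whose tumours metastasise. The 3 control arrays came from cells transduced with a control shRNA vector and the 3 NFAT1 shRNA arrays from cells with a vector expressing an shRNA against NFAT1, the calcium-activated transcription factor encoded by Nfatc2. All 6 samples went through 10 days of selection in culture before collection, and 200 ng of total RNA was labelled from each. The labels do not say how many shRNA sequences were used, whether the cells were clones or pools, or whether separate cultures gave the 3 arrays of a group, so the spread between arrays may be technical. Values are log2 signals made with RMA (robust multi-array average, which corrects background, equalises the arrays' distributions and gives 1 value per probe set). Each difference is the NFAT1 shRNA mean less the control mean. The median signal of an array was 5.42 to 5.48, and signals under it are called dim, since RMA compresses differences there.

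The acute-phase response is the set of secreted proteins that liver and epithelium make when cytokines such as interleukin 1, interleukin 6, interleukin 17 or tumour necrosis factor reach them. NF-kB, C/EBP factors and STAT3 drive many of these genes. Nfkbiz encodes IkB-zeta, a nuclear partner of NF-kB that is needed for full induction of several of them, Lcn2 among these. Their products bind bacterial siderophores (Lcn2), carry copper and oxidise iron (Cp), act in complement (C3 and Cfb), inhibit neutrophil proteases (Slpi), or form calprotectin (S100a8 and S100a9). Lcn2 is also known as a gene that mammary tumours express.

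The stretches before the gene starts are printed for the 3 members whose signals varied most between arrays, Lcn2, Cp and Slpi, and for Saa3, which was dim on every array. Each is the 250 bases before a RefSeq start in GRCm38.p6, written 5′ to 3′ on the gene's strand. Capitals mark matches on either strand to any of 5 motifs: NF-kB (the kappaB consensus, of 10 letters), C/EBP (TTGCNNAA), STAT (TTCNNNGAA), NFAT (TGGAAA) and AP-1 (TGANTCA).
Lcn2, chr2:32387740-32387989, minus strand: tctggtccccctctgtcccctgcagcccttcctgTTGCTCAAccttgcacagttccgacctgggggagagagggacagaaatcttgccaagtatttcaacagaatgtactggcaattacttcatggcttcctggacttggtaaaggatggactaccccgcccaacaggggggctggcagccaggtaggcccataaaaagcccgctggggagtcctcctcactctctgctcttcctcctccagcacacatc
Cp, chr3:19956804-19957053, plus strand: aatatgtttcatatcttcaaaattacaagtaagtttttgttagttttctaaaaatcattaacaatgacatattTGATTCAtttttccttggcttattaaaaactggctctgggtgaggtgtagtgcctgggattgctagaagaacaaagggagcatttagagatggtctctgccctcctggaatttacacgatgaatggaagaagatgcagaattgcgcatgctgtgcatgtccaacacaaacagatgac
Slpi, chr2:164356508-164356757, minus strand: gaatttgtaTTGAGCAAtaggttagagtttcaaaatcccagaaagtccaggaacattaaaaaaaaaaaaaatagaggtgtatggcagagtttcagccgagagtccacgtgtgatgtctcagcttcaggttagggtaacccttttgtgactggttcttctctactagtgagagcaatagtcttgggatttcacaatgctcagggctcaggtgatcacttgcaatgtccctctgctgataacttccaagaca
Saa3, chr7:46715677-46715926, minus strand: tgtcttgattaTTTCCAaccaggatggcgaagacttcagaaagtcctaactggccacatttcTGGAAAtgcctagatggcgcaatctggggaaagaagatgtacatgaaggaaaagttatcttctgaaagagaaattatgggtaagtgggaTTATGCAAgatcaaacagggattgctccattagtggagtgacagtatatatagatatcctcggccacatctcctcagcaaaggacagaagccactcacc

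RefSeq windows were matched for 7 of the 9 genes, with 8 windows in all, since Cp has a second start whose window overlaps the first. The C/EBP letters were found in 6 of these 8 windows, against 9.56% of all 32851 windows of the same length. They lay 216 to 209 bases before the start of Lcn2 (TTGCTCAA), 241 to 234 before Slpi (TTGAGCAA) and 99 to 92 before Saa3 (TTATGCAA). In Cp they were absent from the printed window and stood 70 to 63 bases before the second start (TTTTGCAA). The windows of C3 and S100a9 held them as well. The NFAT letters were found in 3 of the 8 windows, those of Saa3, C3 and the second start of Cp, against 18.6% of all windows. The AP-1 letters stood in the first Cp window (TGATTCA), against 6.75% of all windows. The kappaB consensus and the STAT letters were in 0 of the 8, against 3.90% and 7.02% of all windows. No 2 of the matches overlapped. A match is a run of letters and not evidence of binding.

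Arrays within a group differed in how alike they were. Over the 3 control arrays, 415 probe sets had a range of at least 1 on the log2 scale, and control 3 lay between controls 1 and 2 in 98.3% of them. Over the 3 NFAT1 shRNA arrays 2647 probe sets had such a range, and NFAT1 shRNA 1 lay between the others in 7.97% of them. Nfatc2 itself was read by 6 probe sets, with 4 lower and 2 higher means in NFAT1 shRNA cells. With limma 0 of the 6 passed at an adjusted p under 0.05, where 0.200% of all probe sets did. The unadjusted p was under that value for 3, as for 15.7% of all probe sets. On 1439205_at Nfatc2 read 6.05, 6.18 and 5.91 in control and 5.15, 5.43 and 5.29 in NFAT1 shRNA cells. It was lower on every NFAT1 shRNA array there and differed by -0.76 ± 0.11 (SE, limma adjusted p = 0.0707), with an exact 2-sided permutation p of 0.10, which no split of 3 against 3 can go below. By contrast, on 1426032_at, another of the 3, every NFAT1 shRNA array was above every control, by 0.35 on average. The NFAT1 shRNA values on 1439205_at were dim, so the difference there can be understated. Nfatc2 was dim on all 6 arrays on 1425990_a_at, 1426031_a_at and 1440426_at.

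Of 16 markers of mammary epithelium 13 were above the array median on every array, among them Epcam, Cdh1, Krt8 and Krt18, while Krt5, Trp63 and Elf5 were dim on all. Krt14, a basal keratin gene among the 13, read 10.67, 10.38 and 10.56 in control and 9.38, 7.46 and 8.40 in NFAT1 shRNA cells, without overlap. Neutrophils are a rich source of Lcn2 and calprotectin in tissue, and 12 of 14 measured neutrophil markers were dim on all 6 arrays, Elane, Mpo, Ngp and Csf3r among them. Their summed linear signal was 250 to 262 on the control arrays and 307 to 404 on the NFAT1 shRNA arrays, a gap led by Ltf, which belongs to the iron genes below. Of 18 macrophage markers 13 were dim on all arrays, including Ptprc, Adgre1 and Tyrobp, which mark leukocytes. The sum of the macrophage markers was 856, 1082 and 970 on controls 1 to 3 and 716, 1460 and 1247 on NFAT1 shRNA 1 to 3, carried by Csf1r, Cd14 and Cd68. It was thus low on the same 2 arrays as Lcn2 below. The sum of the mammary epithelium markers was lowest on these 2 arrays within the groups as well. It was 42351, 45727 and 44124 on controls 1 to 3 and 40960, 48076 and 47907 on NFAT1 shRNA 1 to 3. The part of either sum in the members' values was not tested. Lymphocyte markers summed to 279 to 294 in control and 280 to 305 in NFAT1 shRNA arrays, and endothelial markers to 190 to 220 and 215 to 248. Fibroblast markers summed to 919 to 964 and 450 to 717, with Col1a1, Col3a1 and Dcn dim on all arrays. Postn, which encodes periostin, made most of that gap, at 9.27, 8.75 and 9.05 in control and 5.69, 5.63 and 7.75 in NFAT1 shRNA cells, without overlap. Pdgfra, a growth factor receptor gene, was above the median on every array at 6.30, 7.90 and 7.47 in control and 6.82, 8.44 and 7.88 in NFAT1 shRNA cells. It too was lowest on control 1 and NFAT1 shRNA 1 within the groups, and its part in the members' values was not tested.

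Lcn2, the siderophore-binding lipocalin also called NGAL, had the widest range of signal of all 18193 genes over the 6 arrays, and the spread lay inside the groups. Its only probe set, 1427747_a_at, read 4.37, 9.99 and 8.82 on controls 1 to 3 and 6.07, 10.25 and 10.50 on NFAT1 shRNA 1 to 3. Control 1 was dim, NFAT1 shRNA 1 stood little above the array median, and the other 4 arrays were bright whichever shRNA they carried. Within the control group Lcn2 ranged over 5.61, or 48.9-fold between controls 1 and 2, which was the widest control range of all genes. As control 1 was dim, this range can be understated. Within the NFAT1 shRNA group the range was 4.43, or 21.5-fold, the second widest. The group means were 7.73 ± 2.96 and 8.94 ± 2.49 (SD, n = 3 each), a difference of 1.21 ± 1.72 (SE). The groups overlapped, and the difference was smaller than the SD of either group. Without control 1 it turned to -0.47, and without NFAT1 shRNA 1 it was 2.64. As these are bulk samples, fewer cells that express a gene and less RNA per cell cannot be told apart.

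Cp encodes ceruloplasmin, the copper-carrying ferroxidase that loads iron onto transferrin. It was read by 8 probe sets, which all ranked the 6 arrays the same way: control 1 lowest, then control 3, NFAT1 shRNA 1, control 2, NFAT1 shRNA 3 and NFAT1 shRNA 2. They read 1 gene in the same 6 RNA samples, so they are not replicates of each other. On 1417494_a_at, which had the highest mean, Cp read 7.28, 10.52 and 9.59 on controls 1 to 3 and 9.76, 11.75 and 11.33 on NFAT1 shRNA 1 to 3. NFAT1 shRNA 2 and 3 were above every control, and NFAT1 shRNA 1 was inside the control range. The means were 9.13 ± 1.67 and 10.95 ± 1.04 (SD, n = 3 each), a difference of 1.81 ± 0.88 (SE) or 3.52-fold. Over the 8 probe sets the difference ran from 1.51 to 2.32, the control range from 1.76 to 3.42 and the NFAT1 shRNA range from 1.96 to 2.30. The lowest control values, down to 3.98, were dim on 1417496_at, 1417497_at, 1441326_at and 1448735_at, where the ranges can be understated. Among genes, the control range of Cp on 1417494_a_at was the fourth widest. Without control 1 its difference was 0.89, and without NFAT1 shRNA 1 it was 2.40.

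**Figure D1:**
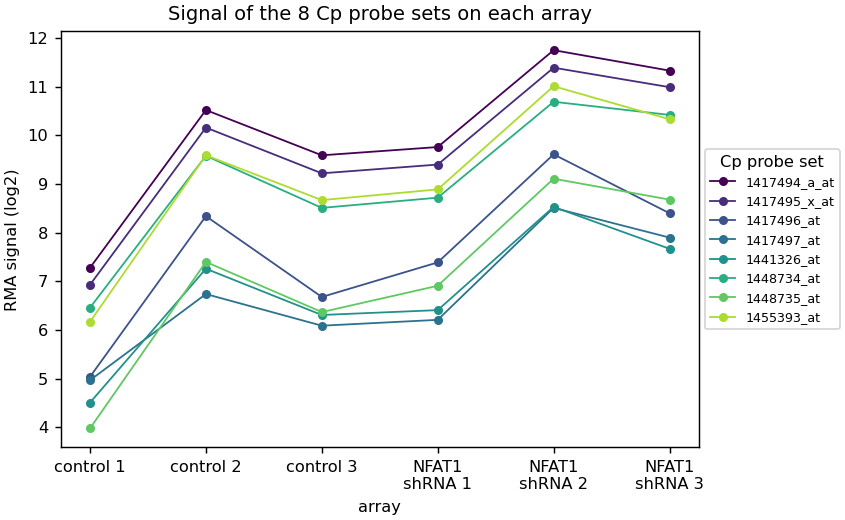
Log2 RMA signal (vertical axis) of the 8 Cp probe sets on the 3 control and 3 NFAT1 shRNA arrays (horizontal axis); each line joins the values of 1 probe set, and the order of the arrays carries no meaning. All 8 lines are lowest on control 1 and highest on NFAT1 shRNA 2.

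Slpi, the secretory inhibitor of neutrophil elastase and related proteases, varied less than Lcn2 but in a similar way. The probe set 1448377_at read 7.85, 9.86 and 9.24 on controls 1 to 3 and 8.90, 11 and 10.33 on NFAT1 shRNA 1 to 3. All 6 values were above the array medians, control 1 was the lowest, and NFAT1 shRNA 1 again lay inside the control range. The range was 2.01 within the control group and 2.10 within the NFAT1 shRNA group, each about 4-fold (4.04 and 4.30). Slpi had means of 8.98 ± 1.03 and 10.08 ± 1.07 (SD, n = 3 each), a difference of 1.09 ± 0.67 (SE) or 2.13-fold. Without control 1 this was 0.53, and without NFAT1 shRNA 1 it was 1.68.

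**Figure D2:**
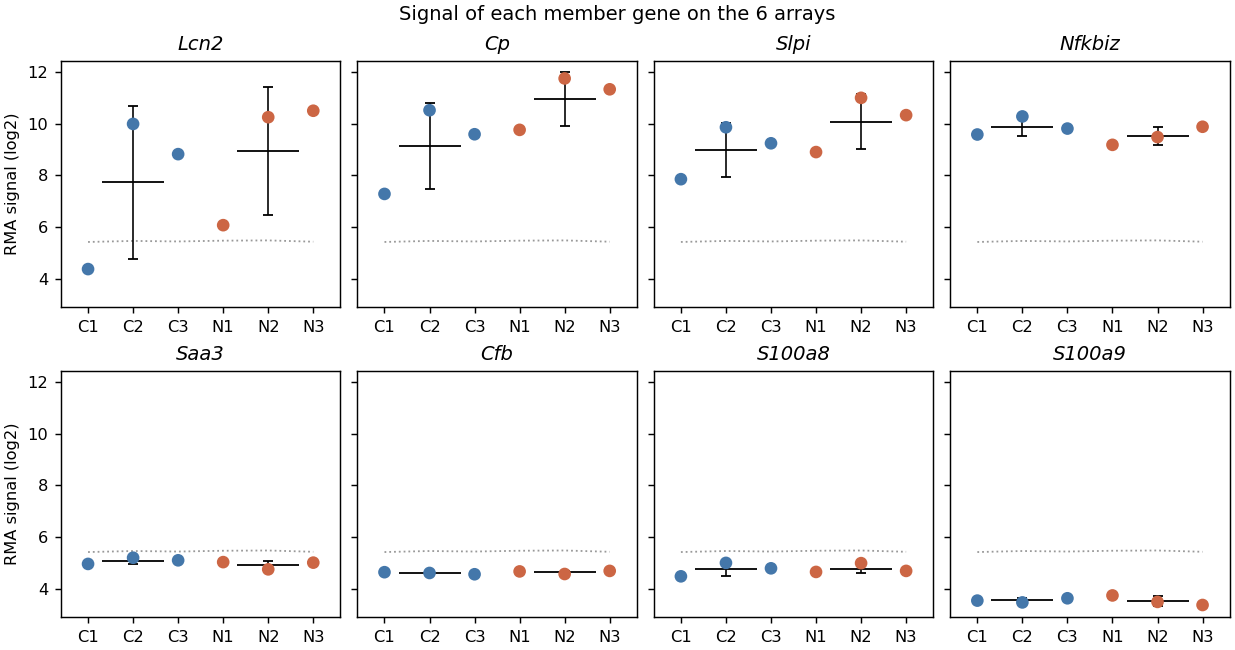
Log2 RMA signal (vertical axis) of the 8 measured genes on controls 1 to 3 (C1 to C3, blue) and NFAT1 shRNA 1 to 3 (N1 to N3, orange), with 1 probe set per gene, that with the highest mean; black bars are group means ± SD and the dotted line joins the array medians. Lcn2, Cp and Slpi are spread widely within both groups, and Nfkbiz less widely. Saa3, Cfb, S100a8 and S100a9 lie under the dotted line on all 6 arrays.

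Nfkbiz, the nuclear IkB family regulator, had a narrower spread than Lcn2, Cp and Slpi. On 1417483_at it read 9.58, 10.28 and 9.81 on controls 1 to 3 and 9.18, 9.48 and 9.88 on NFAT1 shRNA 1 to 3, bright on every array. Control 1 and NFAT1 shRNA 1 were the lowest of their groups here too, by less than 1 on the log2 scale. The groups overlapped there, with means of 9.89 ± 0.36 and 9.51 ± 0.35 (SD, n = 3 each) and a difference of -0.38 ± 0.23 (SE). On 1457404_at the values were 7.94, 8.13 and 7.99 in control and 7.66, 7.12 and 7.79 in NFAT1 shRNA cells. Every NFAT1 shRNA array was below every control array on that probe set, with a difference of -0.49 ± 0.18 (SE). The third probe set, 1448728_a_at, differed by -0.14 ± 0.19 (SE) and its groups overlapped. In NFAT1 shRNA cells the mean of all 3 Nfkbiz probe sets was thus lower, while those of Lcn2, Cp and Slpi were higher. The control range of Nfkbiz was 0.19 to 0.71 over its probe sets. On 1417483_at that range ranked 587 of 18193 genes, and its NFAT1 shRNA range ranked 2877. The order of the arrays differed between them. The lowest NFAT1 shRNA array was NFAT1 shRNA 2 on 1457404_at, and the lowest control was control 3 on 1448728_a_at.

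The other 4 measured genes were dim on all 6 arrays, so a difference between groups could be compressed. Saa3, a serum amyloid that inflamed epithelium and macrophages make, read 4.96, 5.20 and 5.10 in control and 5.03, 4.75 and 5.01 in NFAT1 shRNA cells, a difference of -0.16 ± 0.11 (SE). Cfb, the serine protease of the alternative complement pathway, read 4.64, 4.61 and 4.56 in control and 4.67, 4.57 and 4.69 in NFAT1 shRNA cells, a difference of 0.040 ± 0.079 (SE). The groups overlapped for each. S100a8 read 4.48, 5.0 and 4.79 in control and 4.65, 4.99 and 4.69 in NFAT1 shRNA cells, a difference of 0.022 ± 0.16 (SE). Its partner in calprotectin, S100a9, read 3.54, 3.47 and 3.63 in control and 3.74, 3.49 and 3.37 in NFAT1 shRNA cells, a difference of -0.019 ± 0.12 (SE). Among these 4 genes S100a8 had the widest control range, 0.52, with control 1 the lowest control. In some of the settings tried the sign of the difference turned for Cfb, S100a8 and S100a9, and in none for Saa3.

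Counted over the 17 member probe sets, 10 had a range of at least 1 within the control group, where 0.921% of all probe sets did, and 10 had one within the NFAT1 shRNA group, where 5.88% did. In both groups these were the 8 Cp probe sets, Lcn2 and Slpi. Since the members were chosen with these ranges known, the counts only describe them. In all 10, control 1 was the lowest control and NFAT1 shRNA 1 the lowest NFAT1 shRNA array. The same held for 81.7% of all 415 probe sets with such a control range, so this order was common among variable probe sets. With limma over all probe sets, 0 of the 17 passed at an adjusted p under 0.05, where 0.200% of the table did. For 3 the unadjusted p was under that value, as for 15.7% of the table. Those 3 were Cp on 1417497_at and 1448735_at and Nfkbiz on 1457404_at. The groups did not overlap for 1 of the 17, the Nfkbiz probe set 1457404_at, which was lower in NFAT1 shRNA cells. Over all probe sets 9.33% were lower and 11.6% higher without overlap, 20.9% in all. A mean higher by at least 1 was found for 10 of the 17, the same 10 as above, where 0.706% of all probe sets had one. Nothing is read from these counts about the effect of the shRNA. With arrays weighted by their fit 0 of the 17 passed, where 5.06% of all probe sets did. Without NFAT1 shRNA 1 the number passing was 1, Cp on 1417497_at, and 12.9% of all probe sets passed in that fit.

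**Figure D3:**
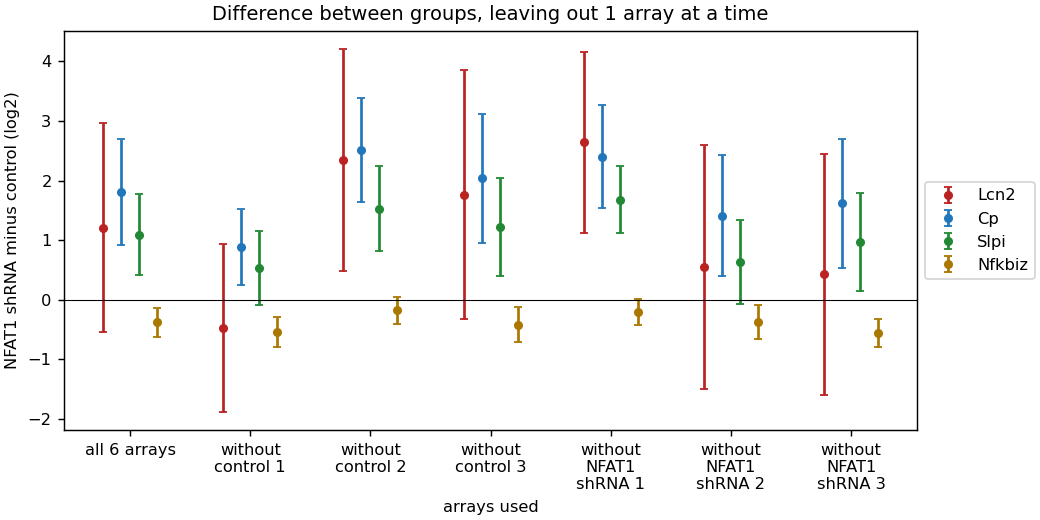
Difference between groups in log2 signal (vertical axis, NFAT1 shRNA minus control; bars are ± SE of the limma fit over genes) for Lcn2, Cp, Slpi and Nfkbiz with all 6 arrays and with each array left out (horizontal axis). Lcn2 lies at 1.21 with all arrays and at -0.47 without control 1. The points of Cp and Slpi stay above 0 and those of Nfkbiz below 0 throughout. The bars of Slpi cross 0 without control 1 and without NFAT1 shRNA 2. Those of Nfkbiz do so without control 2 and without NFAT1 shRNA 1.

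Genes whose array profile was most like that of Lcn2 were ranked by the root mean square difference between log2 profiles over the 6 arrays, each centred on its own mean. The candidates were 1901 genes with a range of at least 1 over the 6 arrays whose higher group mean was at least 6. The nearest 5 were Dmp1 (1.07), Gpr146 (1.09), Oasl2 (1.12), Trp53inp1 (1.13) and Mgst1 (1.16). Dmp1, named for dentin matrix protein, read 3.42, 6.01 and 5.17 in control and 4.22, 8.35 and 7.58 in NFAT1 shRNA cells. Oasl2 is an interferon-induced gene of the oligoadenylate synthetase family, and it read 4.32, 7.67 and 6.59 in control and 3.58, 6.73 and 7.22 in NFAT1 shRNA cells. Mgst1, a membrane-bound glutathione transferase, read 7.02, 9.72 and 8.74 in control and 8.28, 10.58 and 10.54 in NFAT1 shRNA cells. Trp53inp1, a stress-induced p53 target, read 4.87, 7.37 and 6.54 and then 6.14, 9.29 and 9.32. Each of these 5 had its lowest control value on control 1 and its lowest NFAT1 shRNA value on NFAT1 shRNA 1. No profile was close to that of Lcn2, since none of the 5 had as wide a range. Among the members Cp was at 1.19 and Slpi at 1.43 from Lcn2, ranks 7 and 21 when placed among the candidates with Lcn2 itself first. Nfkbiz was at 2.14, and the dim S100a8, Saa3, Cfb and S100a9 were at 2.17 to 2.39.

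**Figure D4:**
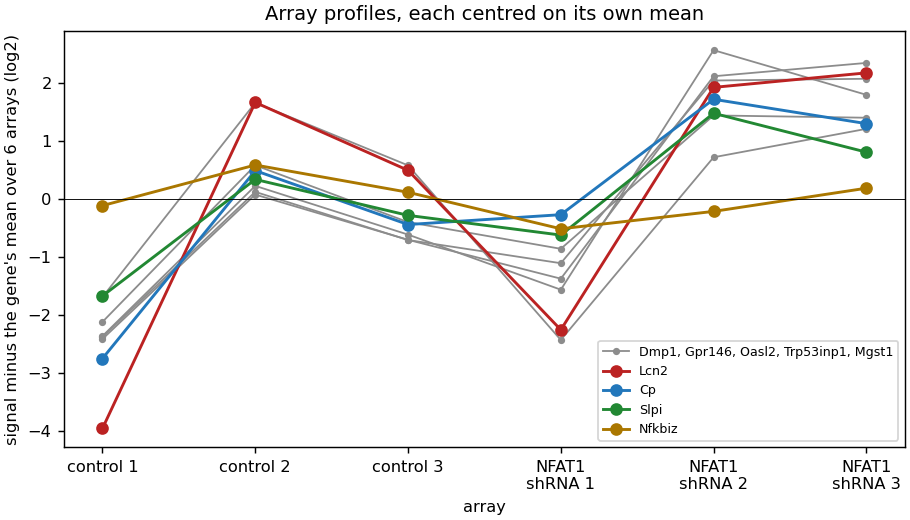
Log2 RMA signal minus the gene's mean over the 6 arrays (vertical axis) on each array (horizontal axis) for Lcn2, Cp, Slpi, Nfkbiz and, in grey, the 5 genes most like Lcn2; lines join the values of 1 gene. All lines have their lowest control value on control 1 and their lowest NFAT1 shRNA value on NFAT1 shRNA 1. The control range is 0.71 for Nfkbiz, read here on 1417483_at alone, and 5.61 for Lcn2.

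Around the members, 7 lists of related genes were compared, with 161 of 176 genes measured and the probe set with the highest mean used for each gene. With limma over all genes 0 of the 161 passed, where 0.511% of all genes did, 0.181% higher and 0.330% lower. At an unadjusted p under 0.05 there were 15 higher and 3 lower, and 17.1% of all genes in either direction. Over all 18193 genes 1840 were higher and 1275 lower at that p, so higher was the commoner direction there too. The counts per list below stand beside these. The median difference was 0.10 over the lists and 0.043 over all genes. Without NFAT1 shRNA 1, however, 18 of the 161 passed, along with 18.4% of all genes. With any other single array left out 0 of the 161 passed, where 0 to 0.363% of all genes did. With arrays weighted by their fit 16 passed, along with 18.6%. A control range of at least 1 was found for 9 of the 161, where 1.32% of all genes had one, and an NFAT1 shRNA range of at least 1 for 27, where 7.11% had one. The 9 with a wide control range were Ehf, Osmr, Cebpb, Ikbke, Grn, Il1a, Tnfrsf1b, Il6ra and Itgb2. In all 9 control 1 was the lowest control and NFAT1 shRNA 1 the lowest NFAT1 shRNA array, as in 88.3% of the 240 genes with such a range.

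Among cytokines, their receptors and adaptors, 30 of 32 were measured, 0 passed and 1 had an unadjusted p under 0.05, with a median difference of 0.10. Il6ra, the interleukin 6 receptor chain, read 6.31, 7.35 and 6.92 in control and 6.86, 9.03 and 7.96 in NFAT1 shRNA cells, a difference of 1.09 ± 0.55 (SE, limma adjusted p = 0.347). Tnfrsf1b, a receptor for tumour necrosis factor, read 6.89, 7.94 and 7.60 in control and 7.39, 9.19 and 8.89 in NFAT1 shRNA cells, a difference of 1.01 (limma adjusted p = 0.345). Osmr, which pairs with the interleukin 6 signalling chain to bind oncostatin M, differed by -0.68 (limma adjusted p = 0.480). Among the inducing cytokines Il6 was dim on all arrays, at 2.98 ± 0.24 in control and 2.68 ± 0.16 in NFAT1 shRNA cells (SD, n = 3), and Il1b stood near the array medians at 5.67 ± 0.091 and 5.85 ± 0.27. Tlr4, the receptor for endotoxin and calprotectin, read 7.37, 7.96 and 7.57 in control and 7.03, 8.52 and 8.59 in NFAT1 shRNA cells, and its groups overlapped. Without NFAT1 shRNA 1 Il6ra, Tnfrsf1b and Tlr4 passed (limma adjusted p = 0.0341, 0.0176 and 0.0177), as did 18.4% of all genes.

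Among the transcriptional and signalling regulators, 26 of 28 were measured and 0 passed. An unadjusted p under 0.05 was found for 4, all higher, where 17.1% of all genes had one in either direction. The median difference was 0.11. Cebpb encodes a C/EBP factor that binds acute-phase promoters. It read 10.19, 11.45 and 10.88 in control and 10.51, 12.08 and 11.88 in NFAT1 shRNA cells. Cebpb differed by 0.65 ± 0.49 (SE, limma adjusted p = 0.501). Its arrays followed the order seen for Lcn2 in having control 1 and NFAT1 shRNA 1 at the bottom, over a control range of 1.26. Cebpd, its relative, differed by -0.27 and read 6.0, 5.37 and 7.30 on the NFAT1 shRNA arrays, without that order. Jak2 encodes a kinase, not the only one, that cytokine receptors use to activate STAT3. It read 8.87, 9.40 and 9.21 in control and 10.04, 10.65 and 10.64 in NFAT1 shRNA cells. Every NFAT1 shRNA array was above every control for Jak2, a difference of 1.28 ± 0.21 (SE, limma adjusted p = 0.0709), and without NFAT1 shRNA 1 it passed (0.00480). Tyk2, a kinase of the same family, differed by 0.99 (limma adjusted p = 0.272), and without NFAT1 shRNA 1 it passed (0.0103). Stat3 differed by 0.23, its feedback inhibitor Socs3 by 0.11 and Bcl3, a nuclear IkB relative of Nfkbiz, by 0.047, with limma adjusted p of 0.318, 0.706 and 0.931. Stat3 also passed without NFAT1 shRNA 1 (0.0405), a fit in which 18.4% of all genes passed.

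Of the other acute-phase genes, 27 of 30 were measured and 0 passed. For 3 the unadjusted p was under 0.05, all higher, as it was for 17.1% of all genes in either direction. The median difference was 0.15. The metal-binding metallothionein genes Mt1 and Mt2 differed by 0.72 and 0.75 (limma adjusted p = 0.306 and 0.276). For both, every NFAT1 shRNA array was above every control array, with NFAT1 shRNA 3 the highest at 10.29 and 10.20. Cd14, the endotoxin co-receptor, differed by 0.31 (limma adjusted p = 0.586). In the complement list 31 of 35 were measured, 0 passed and 3 had an unadjusted p under 0.05, with a median difference of 0.10. Clu, which encodes the complement-binding chaperone clusterin, read 11.82, 12.07 and 12.00 in control and 11.23, 11.70 and 11.72 in NFAT1 shRNA cells, a difference of -0.41 ± 0.15 (SE, limma adjusted p = 0.264). Itgb2, a subunit of complement receptor 3, differed by 0.68 (limma adjusted p = 0.507) and passed without NFAT1 shRNA 1 (0.0348). In that fit 18.4% of all genes passed. C2, the classical-pathway counterpart of Cfb, differed by 0.22 (limma adjusted p = 0.304).

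Of the iron and siderophore genes 22 of 24 were measured, 0 passed and 4 had an unadjusted p under 0.05, with a median difference of 0.11. Ltf, the iron-binding secreted protein lactoferrin, read 5.09, 5.15 and 4.83 in control and 5.77, 7.23 and 7.08 in NFAT1 shRNA cells. All 3 NFAT1 shRNA arrays were above the controls, which were dim, and Ltf differed by 1.67 ± 0.38 (SE, limma adjusted p = 0.140). Tfrc, the transferrin receptor, read 12.46, 12.05 and 12.31 in control and 12.34, 11.01 and 11.31 in NFAT1 shRNA cells, a difference of -0.72 (limma adjusted p = 0.325). Slc40a1, the iron exporter ferroportin, differed by 0.66 ± 0.71 (SE) and read 5.58, 7.63 and 8.53 on the NFAT1 shRNA arrays. Without NFAT1 shRNA 1 Ltf, Tfrc and Slc40a1 passed (limma adjusted p = 0.00224, 0.00827 and 0.0233), as did 18.4% of all genes. Slc22a17, described as a receptor for Lcn2, lay near the array medians at 5.62 ± 0.20 in control and 5.77 ± 0.11 in NFAT1 shRNA cells (SD, n = 3).

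Of the other S100 genes 13 of 16 were measured, 0 passed and 2 had an unadjusted p under 0.05, with a median difference of 0.036. S100a16 read 6.76, 6.59 and 6.86 in control and 7.74, 7.13 and 7.44 in NFAT1 shRNA cells, without overlap. The difference was 0.70 ± 0.17 (SE, limma adjusted p = 0.153, and 0.0349 without NFAT1 shRNA 1). Of all genes 18.4% passed in that last fit. S100a13 differed by 0.31 ± 0.078 (limma adjusted p = 0.161) and S100a14 by 0.31 ± 0.19 (0.414). Of the whey acidic protein family and the proteases and partners of Slpi, 18 of 18 were measured, 0 passed and 1 had an unadjusted p under 0.05, with a median difference of 0.068. Wfdc2, a relative of Slpi with the same kind of inhibitor domain, read 12.92, 12.94 and 12.87 in control and 12.69, 12.77 and 12.67 in NFAT1 shRNA cells, a difference of -0.20 ± 0.075 (SE, limma adjusted p = 0.259). Wfdc2 thus varied by 0.068 over the control arrays, over which Slpi varied by 2.01. Grn, which encodes progranulin, a protein that Slpi protects from elastase, read 10.92, 11.99 and 11.54 in control and 11.44, 12.69 and 12.15 in NFAT1 shRNA cells, a difference of 0.61 (limma adjusted p = 0.425). Anxa2 differed by -0.14 (limma adjusted p = 0.464), and Elane, the elastase that Slpi inhibits, was dim on all arrays at 3.76 ± 0.093 and 3.92 ± 0.070 (SD, n = 3).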

How the data were processed

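RNA of 4T1 cells was measured on 6 arrays, 3 per group, with groups and replicate numbers from the labels. Per the submitters' processing notes the authors applied RMA, and the deposited values are on its log2 scale. Quantile normalization hides a shift of most transcripts in 1 direction. Symbols came from the platform annotation: 34945 probe sets had 1 symbol, 932 several, and 9160 are unnamed here. Of those with 1 symbol 34741 matched the gene table GRCm38.p6 by gene number and 0 symbols changed. For lists, 1 probe set stood for each gene, that of highest mean.

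The test was limma 3.58.1 (lmFit, eBayes; R 4.3.3) over all 45037 probe sets or 18193 genes, without a filter or covariates, 2-sided, adjusted by Benjamini-Hochberg. Tables were made with Python 3.11.15. On simulated data with the 45037 probe sets, limma recovered 68.7% of log2 changes of 1 and 98.5% of 4, with 10 false calls. The simulated noise was independent between arrays, and the spreads were shuffled among the probe sets. The recovered shares therefore do not apply to members spread as widely as Lcn2, Cp and Slpi. The number of arrays limits the precision, as arrays give no read depth.

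The members and lists were chosen with earlier results of these data known. Named genes were all members, from each list those passing or else up to 3 with the largest difference and a mean of at least 6 in the higher group, 10 genes fixed by name, and the 5 most like Lcn2. The alternatives were a filter, scaling, variance prior, array weights, a replicate block, probe set choice and leaving out arrays.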

Additional observations from a re-analysis of the deposited data

How the results depend on the processing

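The alternatives included array medians subtracted, a second quantile normalization and a trended and robust variance prior. Another was a filter for signals of at least 6 on at least 3 arrays. Under each of these 0 member probe sets and 0 list genes passed the limma test, as in the analysis reported. In these fits 0.189 to 0.423% of all probe sets and 0.346 to 0.727% of all genes passed. With array weights 0 of the 17 member probe sets, 16 list genes and 1 Nfatc2 probe set passed, beside 5.06% of all probe sets and 18.6% of all genes. With the replicate number as a block 9 of the 17 passed, the 8 Cp probe sets and Slpi, with 7 list genes and 1 Nfatc2 probe set, beside 3.18% of all probe sets and 4.35% of all genes, the share that 7 of 161 also makes. The replicate numbers were not taken as pairs: arrays with the same number deviated from their group means with correlations of 0.619, 0.513 and 0.051 for numbers 1 to 3, and not every array correlated best with its own number. Leaving out each array gave 0 to 1 member probe sets, 0 to 18 list genes and 0 to 1 Nfatc2 probe sets. The share passing was 0 to 12.9% of all probe sets and 0 to 18.4% of all genes. The highest counts and shares were all without NFAT1 shRNA 1. Without control 3 and NFAT1 shRNA 1 together 2 list genes passed, Jak2 and Ltf, beside 2.24% of all genes. The settings were applied to Nfatc2 after the data were seen. Over 15 settings the difference ran from -0.47 to 3.19 for Lcn2, 0.89 to 2.63 for Cp, 0.53 to 1.81 for Slpi and -0.56 to -0.18 for Nfkbiz. Lcn2 kept its direction in 14 of them, all but that without control 1. The filter, variance prior, replicate block and probe set choices could not change its difference, which stayed at 1.21. The counts of member probe sets with a range of at least 1 in a group, 10 and 10, and of those without overlap, 1, were the same under both scalings and the filter. Why the settings differ was not tested, and the cause was not tested for any single array.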

Other observations

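The likeness measure was also taken from Cp and from Slpi, a step chosen after the data were seen. Over 1961 other genes of the same brightness and range, the nearest to Cp were Mgst1 (0.37), the tetraspanin gene Tspan1 (0.38), the transporter gene Abcc3 (0.40) and Pdcd4 (0.46), with Slpi at rank 5 (0.52). The nearest to Slpi were Slc43a2 (0.22), Trim21 (0.27), Lrrn4cl (0.28), H2bc21 (0.28) and Slc44a3 (0.29), and Cp ranked 158 (0.52). Lcn2 ranked 867 from Cp and 1596 from Slpi. The measure is not scaled by the range of a gene, so Lcn2, with the widest range, lies far from narrower genes. These ranks therefore do not compare the order of the arrays.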
